A study of Mus musculus with 8 samples.

Results

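CC chemokines are small secreted proteins that draw monocytes and other leukocytes into tissue, and 9 genes of this family were followed here in mouse lung. They were the 7 ligand genes Ccl2, Ccl7, Ccl12, Ccl3, Ccl4, Ccl6 and Ccl9 and the 2 receptor genes Ccr1 and Ccr2, taken by symbol from the 25965 genes of the deposited table. The symbols were selected on earlier results of these libraries, above all the difference in log2 RPKM between genotypes at P1.5. Values at P1.5, and comparisons that use the P1.5 libraries, are therefore a description of these 9 genes without a test, and only the genotype comparison at E18.5 was tested. All 9 genes were among the 15627 that passed a minimum mean of 0.05 RPKM over the libraries.

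RNA of whole lung was sequenced from Wfdc2+/+ and Wfdc2GFP/GFP mice before birth at embryonic stage E18.5 and after birth at postnatal stage P1.5. Wfdc2 encodes a secreted whey acidic protein of the airway epithelium. The Wfdc2GFP allele carries an IRES-EGFP cassette in place of part of exon 1 and all of exon 2, with the drug marker removed by CAG-Cre, so that Wfdc2GFP/GFP mice lack the gene in every cell and not in the lung alone. The 4 groups were E18.5 Wfdc2+/+, E18.5 Wfdc2GFP/GFP, P1.5 Wfdc2+/+ and P1.5 Wfdc2GFP/GFP, with 2 libraries each. Whether a library held 1 animal or a pool is not given in the sources used here, so the spread between libraries may be partly technical. The study's text calls the controls littermates, and which libraries came from the same litter is not given. Wfdc2GFP/GFP neonates have collapsed lung regions of varying size, and the extent in the sequenced lungs is not given.

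The labels were checked first on the targeted gene. The lowest Wfdc2+/+ library had 8038 reads of Wfdc2 and the highest 32845, and no Wfdc2GFP/GFP library had more than 12. In every group Xist RNA marked replicate 1 as female (4121 to 90980 reads) and the Y-linked Ddx3y marked replicate 2 as male (972 to 2175 reads), so sex and replicate number cannot be told apart. The lung epithelial marker Sftpc, a surfactant protein, was present in all 8 libraries at 6444 RPM (reads scaled to the total of the library) or more.

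The libraries of a group did not resemble each other equally. The study names 2 Illumina sequencers, either of which was used, and which library ran on which is not given. The replicates of E18.5 Wfdc2+/+ correlated across the 15627 genes with r = 0.984, and 3.86% of the genes lay more than 2-fold apart. In P1.5 Wfdc2+/+ r was 0.917 and 38.9% of the genes lay that far apart, with 7 of the 9 family members lower in replicate 1. Markers of other cells moved with it: replicate 1 had 53718 RPM of Sftpc against 23977 in replicate 2, 192 against 1433 RPM of the fibroblast collagen gene Col1a1, and 94.9 against 488 RPM of the endothelial cadherin gene Cdh5, and their part in the chemokine values was not tested. In E18.5 Wfdc2GFP/GFP r was 0.928 and 24.2% lay that far apart, with 7 of 9 members lower in replicate 1. In that library the club cell gene Scgb1a1 had 1571 reads against 17832 in its replicate, and Vcan, a proteoglycan of mesenchyme and monocytes, had 11225 against 1062. In P1.5 Wfdc2GFP/GFP r was 0.963 and 12.9% lay that far apart, and 8 of 9 members were higher in replicate 2. Values are given below with and without the replicates 1 of P1.5 Wfdc2+/+ and E18.5 Wfdc2GFP/GFP where a statement rests on them.

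Monocytes that carry CCR2, the receptor for CCL2, CCL7 and CCL12, leave the bone marrow and enter tissue along gradients of these ligands. CCL3, CCL4, CCL6 and CCL9 act on other CC receptors, with CCR1 a receptor for CCL3, CCL6 and CCL9. Macrophages, epithelium and stroma release the inducible ligands after stimulation by cytokines or microbial products through NF-kB and AP-1, whereas CCL6 and CCL9 are made by myeloid cells without stimulation.

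The ligand genes lie in a single region of chromosome 11 in the mm10 coordinates of the deposited table. On the forward strand lie Ccl2 (chr11:82035571-82037453), Ccl7 (chr11:82045712-82047525) and Ccl12 (chr11:82101845-82103400). Farther along lie Ccl9 (chr11:83572919-83578636), Ccl6 (chr11:83587882-83593087) and Ccl3 (chr11:83647844-83649355) on the reverse strand, and Ccl4 (chr11:83662584-83664683) on the forward strand. The receptor genes lie close together on chromosome 9, with Ccr1 on the reverse strand (chr9:123962126-123968692) and Ccr2 on the forward strand (chr9:124101950-124113557). All 9 are protein-coding genes, and the spans run over exons and introns. Reads were counted over these spans with no strand setting given, and these closely related neighbours could share reads of identical sequence.

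Promoter sequences were found for 6 of the 9 genes in RefSeq (GRCm38.p6): Ccl3, Ccl6, Ccl9, Ccl12, Ccr1 and Ccr2. The 250 bases before RefSeq's start, which is that of the deposited span except for Ccl3 (a little upstream) and Ccr2 (inside the span), are shown for 4 ligands, Ccl12 and Ccl3, whose level stood higher in Wfdc2GFP/GFP at P1.5, and Ccl9 and Ccl6, whose level stood higher at P1.5 in both genotypes. Each is written on the strand of its gene, 5′ to 3′, and capitals mark matches to a TATA box (TATAAA), an AP-1 site (TGANTCA) or an NF-kB site (GGGA and CC with any 4 bases between them), searched on both strands. The windows are chr11:82101595-82101844 on the forward strand for Ccl12, and chr11:83649379-83649628, chr11:83578637-83578886 and chr11:83593088-83593337 on the reverse strand for Ccl3, Ccl9 and Ccl6.
Ccl12: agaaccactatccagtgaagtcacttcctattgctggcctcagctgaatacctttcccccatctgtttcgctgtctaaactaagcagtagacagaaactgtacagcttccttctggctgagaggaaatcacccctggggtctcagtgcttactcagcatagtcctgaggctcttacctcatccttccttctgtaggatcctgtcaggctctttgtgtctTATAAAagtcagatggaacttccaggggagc
Ccl3: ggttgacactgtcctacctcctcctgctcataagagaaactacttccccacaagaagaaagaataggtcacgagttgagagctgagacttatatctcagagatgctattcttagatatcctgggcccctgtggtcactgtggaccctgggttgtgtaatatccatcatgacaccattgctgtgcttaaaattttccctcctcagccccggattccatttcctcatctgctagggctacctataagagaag
Ccl9: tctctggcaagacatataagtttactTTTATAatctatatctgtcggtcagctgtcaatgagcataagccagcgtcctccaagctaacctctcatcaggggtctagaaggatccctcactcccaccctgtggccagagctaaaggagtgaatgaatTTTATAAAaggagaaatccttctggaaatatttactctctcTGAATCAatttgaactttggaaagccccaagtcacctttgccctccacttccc
Ccl6: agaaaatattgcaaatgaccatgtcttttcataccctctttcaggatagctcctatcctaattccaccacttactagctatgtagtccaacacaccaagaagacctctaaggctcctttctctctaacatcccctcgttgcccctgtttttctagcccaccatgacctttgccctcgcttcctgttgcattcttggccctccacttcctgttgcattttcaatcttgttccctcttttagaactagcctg

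The Ccl12 window held TATAAA from 31 to 26 bases before the start. The Ccl9 window held an AP-1 match 53 to 47 bases before the start and 3 TATA matches, of which the one on the forward strand 92 to 87 bases before the start overlaps one on the other strand. The Ccl3 and Ccl6 windows held no match to these letters, nor did that of Ccr2, which lies largely inside the gene's deposited span, and Ccr1 held 1 NF-kB match, 74 to 65 bases before the start. Of 32851 mouse promoter windows of 250 bases, 12.4% held the TATA letters, 6.75% the AP-1 letters and 17.6% the NF-kB letters. The matches describe the sequence only, and no binding was measured.

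The most abundant ligand in all 4 groups was Ccl6. Levels between genes are compared as RPKM, which is RPM per kilobase of the gene's span. In E18.5 Wfdc2+/+ lungs Ccl6 averaged 4.95 RPKM, followed by Ccr2 (2.44), Ccl12 (1.83), Ccl9 (1.66) and Ccr1 (1.62), and the remaining ligands lay between 0.0790 (Ccl4) and 0.385 (Ccl7). In P1.5 Wfdc2GFP/GFP lungs the order by mean RPKM was Ccl6 (57.6), Ccl9 (13.1), Ccl2 (5.15), Ccl12 (4.07), Ccl7 (2.58), Ccr1 (2.09), Ccl3 (1.72), Ccr2 (0.884) and Ccl4 (0.654). From Ccl2 to Ccl4 in this order the libraries of neighbouring genes overlapped, and Ccl6 and Ccl9 stood clear of each other and of the rest. In E18.5 Wfdc2GFP/GFP lungs Ccl6 averaged 2.75 RPKM, Ccr2 1.39 and Ccl9 1.22, with the others at 0.969 (Ccl12) or less. In P1.5 Wfdc2+/+ lungs Ccl6 averaged 51.4 RPKM, Ccl9 6.27 and Ccr1 1.26, with the others at 0.774 (Ccl12) or less. Per kilobase of exon in place of the span, Ccl6 remained first in every group, and 23 of the 36 ranks were the same.

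Before birth no member of the family differed between genotypes by the test. Of the 9 genes at E18.5, 3 had a higher and 6 a lower mean log2 RPKM in Wfdc2GFP/GFP than in Wfdc2+/+ lungs, with a median difference of -0.81 against 0.09 over all genes tested. None passed limma's moderated test (adjusted p = 0.9998 for each, Benjamini-Hochberg over 15627 genes), nor did any have an unadjusted p under 0.05. With voom on the recovered reads 0 passed and 1 had an unadjusted p under 0.05. Over all genes 0.0192% passed in the limma fit to log2 RPKM, and 4.37% had an unadjusted p under 0.05. With voom 0 of the 15627 genes passed, and 810 had an unadjusted p under 0.05. The groups did not overlap for 1 member that was higher (Ccl7) and 5 that were lower (Ccl6, Ccl9, Ccl12, Ccr1 and Ccr2), beside 26.5% of all genes higher and 9.46% lower without overlap.

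Ccl6 gave the lowest unadjusted p at E18.5. Its log2 RPKM was 2.05 and 2.53 in Wfdc2+/+ and 0.48 and 2.04 in Wfdc2GFP/GFP, replicates 1 and 2 in that order here and throughout. The lower group lay only just below the other in replicate 2 and far below in replicate 1. The log2 fold change was -1.03 ± 0.51 (SE, unadjusted p = 0.0785 in the limma fit across all genes) and -0.25 without the Wfdc2GFP/GFP replicate 1.

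Ccr2 and Ccr1, the receptors, were lower in both E18.5 Wfdc2GFP/GFP libraries. Ccr2 stood at 1.40 and 1.17 log2 RPKM in Wfdc2+/+ and at 0.44 and 0.50 in Wfdc2GFP/GFP, a log2 fold change of -0.81 ± 0.98 (SE). The replicates of a genotype lay closer to each other than the genotypes did, and without the Wfdc2GFP/GFP replicate 1 the change stayed between the extremes of -0.92 and -0.70 that any left-out library gave. Ccr1 stood at 0.95 and 0.37 in Wfdc2+/+ and at -0.23 and -0.06 in Wfdc2GFP/GFP, a log2 fold change of -0.81 ± 0.69 (SE). The SE of the fit pools the spread of all 8 libraries, including the wide spread of these genes at P1.5.

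The remaining E18.5 differences were -1.33 ± 1.09 for Ccl4, -1.06 ± 1.56 for Ccl12, -0.50 ± 0.50 for Ccl9, 0.06 ± 0.91 for Ccl3, 0.34 ± 1.05 for Ccl7 and 0.70 ± 0.90 for Ccl2 (log2 fold change ± SE). Ccl4 had 7 and 4 reads in Wfdc2+/+ against 0 and 5 in Wfdc2GFP/GFP, so its difference lay at the limit of detection. Leukocyte markers were lower as well, in that all 8 pan-leukocyte genes had a lower mean in E18.5 Wfdc2GFP/GFP, none past the adjusted threshold. Their summed level was 198 and 207 RPM in Wfdc2+/+ and 83.5 and 199 RPM in Wfdc2GFP/GFP, low in replicate 1. Of 6 monocyte genes 5 had a lower mean (median -0.99), with Vcan the exception, but the monocyte sums overlapped at 169 and 137 RPM in Wfdc2+/+ against 378 and 111 RPM in Wfdc2GFP/GFP, and 302 of the 378 RPM were Vcan. Of 11 macrophage genes 8 had a lower mean (-0.24), and the macrophage sums were 745 and 811 against 220 and 588 RPM. All 3 erythroid genes were lower (median -1.33), with sums of 1342 and 1318 against 339 and 1053 RPM, and Alas2, an enzyme of haem synthesis in red cell precursors, was low in both Wfdc2GFP/GFP libraries (8851 and 7988 reads against 3041 and 3715). The 2 heart genes had higher means (median 1.40), with 4661 reads of Nppa in Wfdc2GFP/GFP replicate 2 and at most 542 in the other E18.5 libraries. None of these genes was called, and their part in the chemokine values was not tested. Without the Wfdc2GFP/GFP replicate 1 the median difference of the 9 members was -0.10.

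After birth the family looked different. At P1.5 the mean of all 9 genes was higher in Wfdc2GFP/GFP than in Wfdc2+/+ lungs, by a median log2 difference of 2.46 beside -0.20 over all genes tested. The number higher was 7 without Wfdc2GFP/GFP replicate 2 (median 1.78), where Ccl6 and Ccr1 were lower, and 8 without Wfdc2+/+ replicate 1, where Ccr2 was lower. The differences were largest for the CCR2 ligands Ccl2, Ccl12 (16.6-fold) and Ccl7 (8.58-fold) and for Ccl4 (11.5-fold) and Ccl3 (5.50-fold), and small for Ccl6 (1.10-fold) and Ccr1 (1.28-fold). This order rests on replicate 1 of Wfdc2+/+, without which the log2 difference was 3.04 for Ccl2, 2.16 for Ccl4, 1.86 for Ccl9, 1.65 for Ccl7, 1.22 for Ccl3 and 1.21 for Ccl12. In the limma fit with 1 mean per group no member was called at an adjusted p under 0.05, where 0.0128% of all genes were, and 6 did not overlap and were higher, where 12.6% of all genes were (26.9% were lower without overlap, and none of the members was). With the replicate number, and with it sex, as a further term, Ccl2 was among the 9 of 15627 genes called. These genes were chosen with this comparison known, so nothing is read from the counts.

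**Figure D1:**
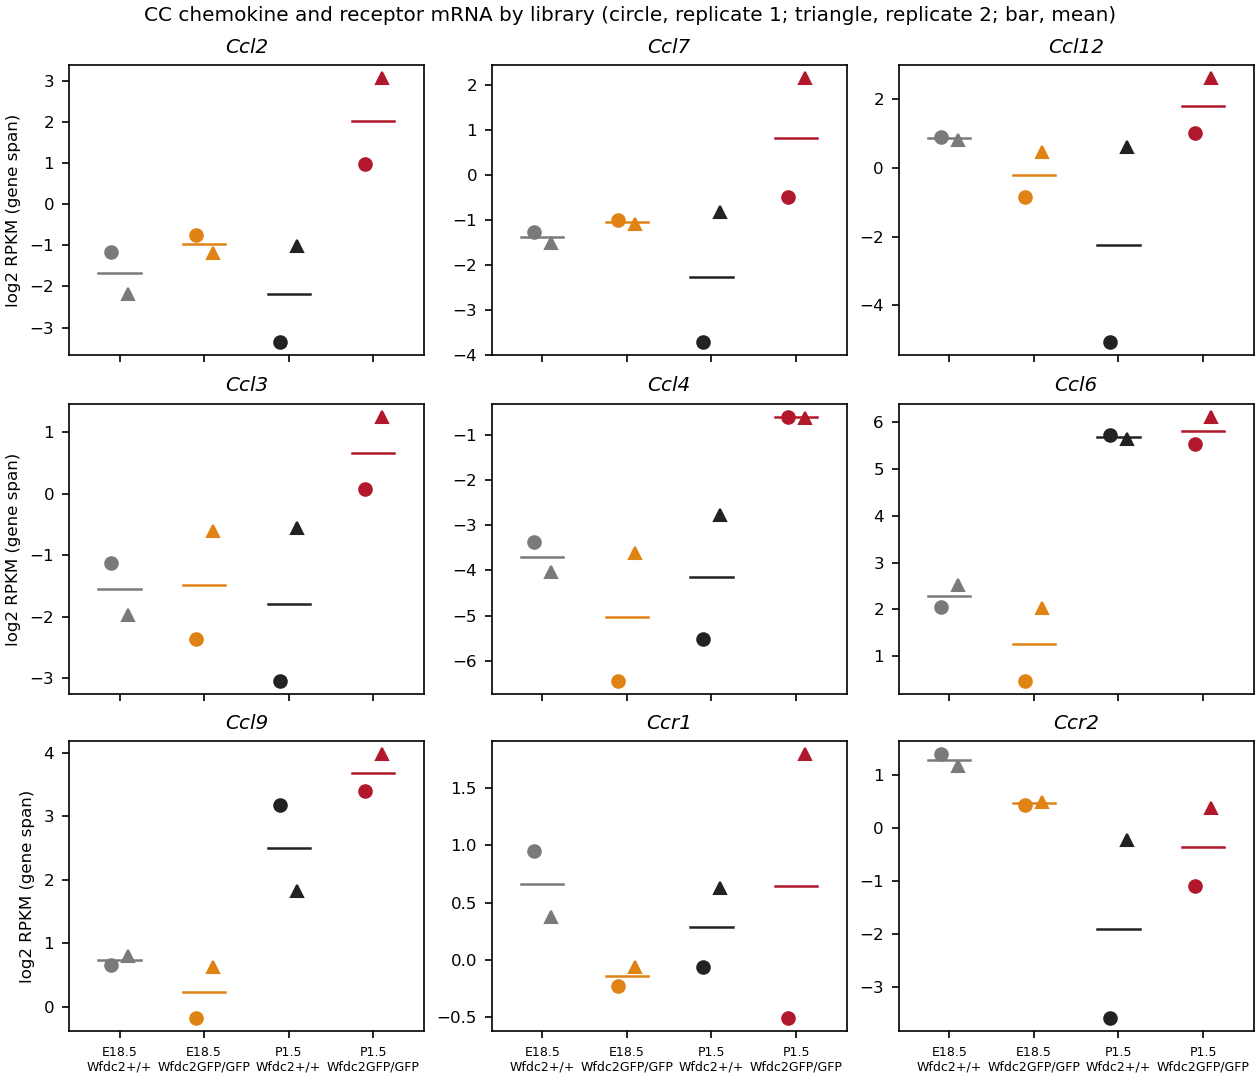
Deposited log2 RPKM (y axis, scaled separately for each gene) of the 9 genes in the 4 groups (x axis), with circles for replicate 1, triangles for replicate 2 and bars for the mean of the 2 libraries. Both P1.5 Wfdc2GFP/GFP libraries lie above all 6 others for Ccl2, Ccl7, Ccl12, Ccl3, Ccl4 and Ccl9, and replicate 1 of P1.5 Wfdc2+/+ is the lowest library for Ccl2, Ccl7, Ccl12, Ccl3 and Ccr2.

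Ccl2, the main attractant of CCR2-bearing monocytes, was read 4 and 18 times in P1.5 Wfdc2+/+ lungs against 86 and 459 times in P1.5 Wfdc2GFP/GFP lungs. In log2 RPKM these were -3.35 and -1.03 against 0.98 and 3.06, and the E18.5 libraries lay between -2.17 and -0.74. Both Wfdc2GFP/GFP libraries at P1.5 were above all others, and within each genotype replicate 2 was the higher. The log2 fold change at P1.5 was 4.21 ± 0.90 (SE), and 3.04 without the Wfdc2+/+ replicate 1.

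Ccl7, the neighbouring gene whose product binds CCR2 and other receptors, followed the same order. It had 3 and 20 reads in P1.5 Wfdc2+/+ and 30 and 236 in P1.5 Wfdc2GFP/GFP, that is -3.71 and -0.82 against -0.49 and 2.15 log2 RPKM. Replicate 1 of Wfdc2GFP/GFP was just above replicate 2 of Wfdc2+/+, so the groups were separate by a narrow gap. The log2 fold change was 3.10 ± 1.05 (SE), and 1.65 without the Wfdc2+/+ replicate 1.

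Ccl12, a further CCR2 ligand of mice, showed the widest spread. It had 1 and 46 reads in P1.5 Wfdc2+/+ and 73 and 278 in Wfdc2GFP/GFP, that is -5.08 and 0.60 against 1.02 and 2.61 log2 RPKM. The log2 fold change was 4.05 ± 1.56 (SE). It rests largely on the Wfdc2+/+ replicate 1 with its 1 read: without that library it was 1.21, and as a ratio of arithmetic mean RPKM the increase was 5.25-fold.

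Ccl3 and Ccl4, which encode macrophage inflammatory proteins, were low in every other group. Ccl3 had 4 and 20 reads in P1.5 Wfdc2+/+ and 37 and 105 in Wfdc2GFP/GFP, that is -3.04 and -0.56 against 0.08 and 1.25 log2 RPKM. Its log2 fold change was 2.46 ± 0.91 (SE), and 1.22 without the Wfdc2+/+ replicate 1. Ccl4 had 1 and 6 reads in Wfdc2+/+ against 32 and 40 in Wfdc2GFP/GFP, that is -5.51 and -2.77 against -0.60 and -0.62 log2 RPKM. The 2 Wfdc2GFP/GFP libraries agreed closely for Ccl4 alone among the members. Its log2 fold change was 3.53 ± 1.09 (SE), and 2.16 without the Wfdc2+/+ replicate 1.

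Ccl9 and Ccl6, the ligands that myeloid cells make constitutively, had the smallest differences of the 7 ligands with all libraries. Ccl9 stood at 3.17 and 1.82 log2 RPKM in P1.5 Wfdc2+/+ and at 3.40 and 3.97 in Wfdc2GFP/GFP, a log2 fold change of 1.19 ± 0.50 (SE). The groups were separate, and here the Wfdc2+/+ replicate 1 was the higher of the 2, so that leaving it out raised the change to 1.86, above that of Ccl7, Ccl3 and Ccl12. Ccl6 stood at 5.72 and 5.64 in Wfdc2+/+ and at 5.53 and 6.11 in Wfdc2GFP/GFP. These groups overlapped, and the log2 fold change of 0.14 ± 0.51 (SE) turned to -0.11 after quantile normalization and to -0.16 without the Wfdc2GFP/GFP replicate 2.

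Among the receptors neither separated the genotypes at P1.5. Ccr2 had 21 and 193 reads in Wfdc2+/+ against 126 and 441 in Wfdc2GFP/GFP, that is -3.59 and -0.23 against -1.09 and 0.38 log2 RPKM. The log2 fold change of 1.55 ± 0.98 (SE) became -0.13 without the Wfdc2+/+ replicate 1, although Ccr2 was higher in Wfdc2GFP/GFP in both sexes. Ccr1 stood at -0.06 and 0.63 in Wfdc2+/+ and at -0.51 and 1.80 in Wfdc2GFP/GFP, with the highest and the lowest library both in the Wfdc2GFP/GFP group. Its log2 fold change was 0.36 ± 0.69 (SE), and -0.79 without the Wfdc2GFP/GFP replicate 2.

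Since replicate 1 was female and replicate 2 male, leaving out the Wfdc2+/+ replicate 1 sets 1 male library against a female and a male. Within a sex, with 1 library of each genotype and no test, 7 of the 9 members were higher in the female P1.5 Wfdc2GFP/GFP library (median log2 difference 3.12) and 9 of 9 in the male (2.01). The female and the male difference were alike for Ccl2 (4.33 and 4.08) and Ccl7 (3.23 and 2.97). The female difference was the wider for Ccl12 (6.10 and 2.01), Ccl4 (4.91 and 2.15), Ccl3 (3.12 and 1.80) and Ccr2 (2.49 and 0.60), and the male one for Ccl9 (0.23 and 2.15). For Ccl6 (-0.19 and 0.47) and Ccr1 (-0.45 and 1.16) the sexes differed in sign. At E18.5, 2 of 9 were higher in the female Wfdc2GFP/GFP library (median -1.18) and 4 of 9 in the male (-0.17). These within-sex values were added after seeing the data.

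**Figure D2:**
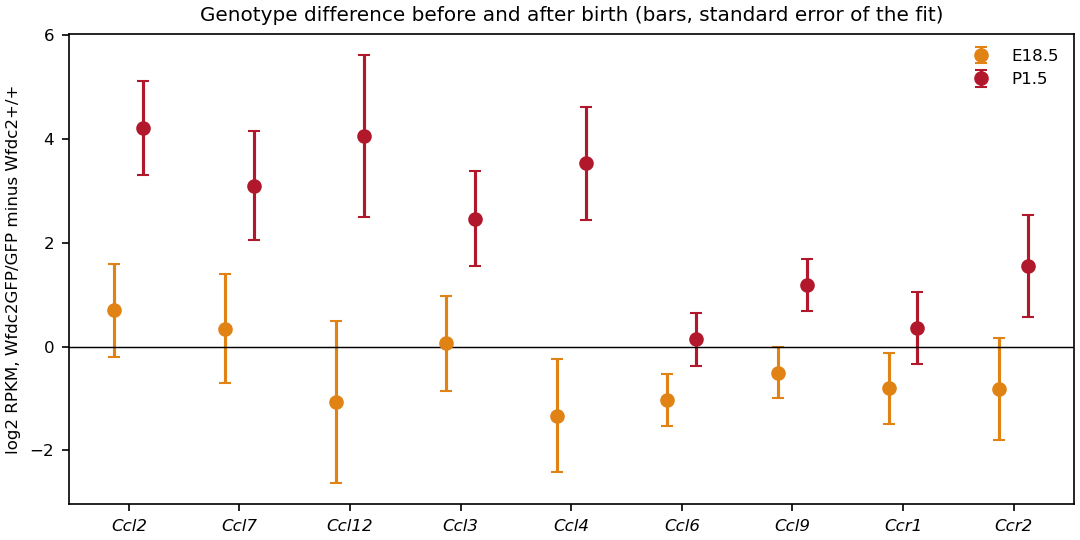
Difference in log2 RPKM between Wfdc2GFP/GFP and Wfdc2+/+ lungs (y axis, with 0 as no difference) for each gene (x axis), in orange at E18.5 and in red at P1.5. Points are log2 fold changes, bars ± 1 SE of limma's fit to all 8 libraries; the P1.5 point lies above the E18.5 point for all 9 genes, from 0.14 for Ccl6 to 4.21 for Ccl2 at P1.5.

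The difference between the genotype effects at the 2 stages was positive for all 9 genes, with a median of 2.40 beside -0.33 over all genes tested. It was widest for Ccl12 (5.12 ± 2.20, SE), Ccl4 (4.86 ± 1.54) and Ccl2 (3.51 ± 1.27) and smallest for Ccl6 (1.16 ± 0.72) and Ccr1 (1.16 ± 0.98). Without the P1.5 Wfdc2+/+ replicate 1 it was 3.48 for Ccl4, 2.35 for Ccl2 and 2.27 for Ccl12, so the first place of Ccl12 rests on that library. No gene of the 15627 was called in this comparison, which is 0%, and 10.2% had an unadjusted p under 0.05. All 9 stayed positive whichever of the 8 libraries was left out, with medians between 1.31 and 4.04. Ccr1 ran from 0.012 (without the P1.5 Wfdc2GFP/GFP replicate 2) to 2.32. Ccl6 ran from 0.38 (without the E18.5 Wfdc2GFP/GFP replicate 1) to 1.94.

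From E18.5 to P1.5 Ccl6 and Ccl9 were higher in both genotypes, and the other ligands were higher in Wfdc2GFP/GFP lungs and lower by mean log2 RPKM in Wfdc2+/+ lungs. By arithmetic mean RPKM, Ccl3 and Ccl4 were higher in Wfdc2+/+ lungs too, at ratios of 1.12 and 1.07. Ccl6 was 10.5-fold higher at P1.5 in Wfdc2+/+ and 23.6-fold higher in Wfdc2GFP/GFP lungs, where the log2 change of 4.56 became 3.78 without the E18.5 replicate 1. Ccl9 was 3.41-fold higher in Wfdc2+/+, and in Wfdc2GFP/GFP its log2 change was 3.46 ± 0.50 (SE). Neither gene's stages overlapped in either genotype. The members were selected on the P1.5 libraries, so the limma calls of these stage comparisons are listed as a description and nothing is read from them: 2 members (Ccl6 and Ccl9) in Wfdc2GFP/GFP, beside 4.55% of all genes, and 0 in Wfdc2+/+, beside 0.0576%. In Wfdc2GFP/GFP the number was 4 (with Ccl2 and Ccl4) with voom, median centring or quantile normalization, beside 1689, 1279 and 706 of all 15627 genes. It was 6 (with Ccl12 and Ccl3 as well) from the 4 libraries alone, beside 3036 of all genes, and 3 (with Ccl4) with a pseudocount of 0.1 RPKM, beside 608. All of these calls in Wfdc2GFP/GFP depended on single libraries, and the log2 change of Ccl9 there was 3.06 without the E18.5 replicate 1. Ccl6 was called in Wfdc2+/+ when the minimum mean was 0.5 RPKM, beside 52 of the 9422 genes then tested. Without overlap, 2 members were higher and 2 lower at P1.5 in Wfdc2+/+, beside 27.4% and 28.2% of all genes, and 7 were higher and 1 lower in Wfdc2GFP/GFP, beside 18.7% and 48.5%.

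Ccl2, Ccl7, Ccl3 and Ccl4 had overlapping stages in Wfdc2+/+ lungs, with log2 changes of -0.52, -0.89, -0.25 and -0.44. In Wfdc2GFP/GFP lungs the same genes were higher at P1.5 without overlap, with log2 changes of 2.99, 1.87, 2.14 and 4.42. With a library left out these ran from 1.95 to 4.03 for Ccl2, 0.55 to 3.19 for Ccl7, 1.27 to 3.02 for Ccl3 and 3.01 to 5.83 for Ccl4. The lowest values came without the P1.5 Wfdc2GFP/GFP replicate 2 for Ccl2 and Ccl7, and without the E18.5 replicate 1 for Ccl3 and Ccl4. Over the same stages the log2 mean of the pan-leukocyte sum was higher by 2.07 and that of the macrophage sum by 2.03, while that of the monocyte sum was at -0.014, or at 0.87 without the E18.5 Wfdc2GFP/GFP replicate 1 with its excess of Vcan. Relative to the pan-leukocyte sum the change in Wfdc2GFP/GFP was 2.49 for Ccl6, 2.35 for Ccl4 and 1.39 for Ccl9, without overlap. It was 0.92 for Ccl2, 0.075 for Ccl3, -0.062 for Ccl12 and -0.20 for Ccl7, with overlapping stages. The receptors were lower, at -2.90 for Ccr2, without overlap, and at -1.28 for Ccr1, with overlapping stages. Without the E18.5 Wfdc2GFP/GFP replicate 1 these relative changes were 2.34 for Ccl6, 1.56 for Ccl4, 1.61 for Ccl9, 1.78 for Ccl2, -0.17 for Ccl3, -0.097 for Ccl12, 0.48 for Ccl7, -2.30 for Ccr2 and -0.74 for Ccr1. Relative to the monocyte sum the changes of the ligands were wider, at 4.57 for Ccl6, 4.43 for Ccl4, 3.47 for Ccl9, 2.16 for Ccl3, 2.02 for Ccl12 and 1.88 for Ccl7, with Ccl2 between Ccl9 and Ccl3. Without that library these were 2.91, 2.13, 2.18, 0.40, 0.47 and 1.05 in the same order, and Ccl2 was at 2.35. Ccr1 and Ccr2 were at 0.80 and -0.82 relative to the monocyte sum, and at -0.17 and -1.73 without that library. Ccl12 went from 0.91 and 0.83 log2 RPKM at E18.5 to -5.08 and 0.60 at P1.5 in Wfdc2+/+ (-3.11 ± 1.56, SE), and from -0.86 and 0.47 to 1.02 and 2.61 in Wfdc2GFP/GFP (2.01 ± 1.56, SE). Without the P1.5 Wfdc2+/+ replicate 1 the changes in Wfdc2+/+ were 0.64 for Ccl2, 0.56 for Ccl7, 0.99 for Ccl3, 0.93 for Ccl4 and -0.27 for Ccl12, so the lower log2 means of the first 4 at P1.5 rest on that library, while Ccl12 stayed lower, at 0.60 against 0.91 and 0.83. With voom the changes of Ccl3 and Ccl4 in Wfdc2+/+ were above 0 as well, and so was that of Ccl3 after median centring. The stage comparisons share the P1.5 libraries with the genotype comparison and are not independent of it.

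Ccr2 was the one member whose level was lower at P1.5 in both genotypes, with no overlap between the stages. The log2 change was -3.19 ± 0.98 (SE) in Wfdc2+/+, -1.51 without the P1.5 replicate 1, and -0.83 ± 0.98 in Wfdc2GFP/GFP, -0.096 without the P1.5 replicate 1. Ccr1 overlapped between stages in both genotypes, with log2 changes of -0.38 in Wfdc2+/+ and 0.79 in Wfdc2GFP/GFP. Without the P1.5 Wfdc2+/+ replicate 1 the former was -0.031. The latter turned to -0.36 without the P1.5 Wfdc2GFP/GFP replicate 2 and was 1.94 without its replicate 1.

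**Figure D3:**
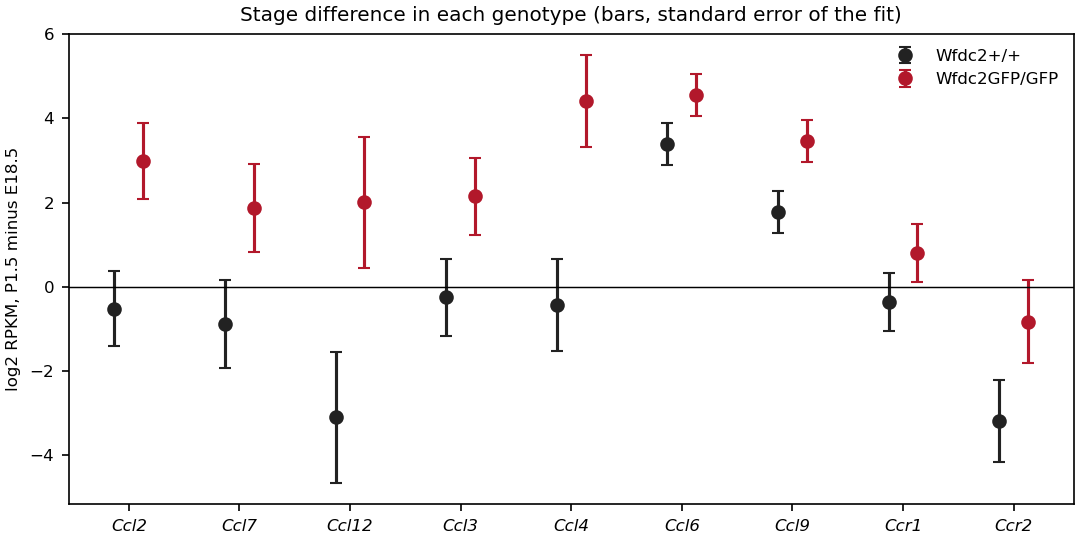
Difference in log2 RPKM between P1.5 and E18.5 lungs (y axis, with 0 as no difference) for each gene (x axis), in black for Wfdc2+/+ and in red for Wfdc2GFP/GFP, with bars of ± 1 SE of limma's fit. Ccl6 and Ccl9 are above 0 in both genotypes, Ccr2 is below 0 in both, and Ccl2, Ccl7, Ccl12, Ccl3 and Ccl4 are above 0 in Wfdc2GFP/GFP and below 0 in Wfdc2+/+, where replicate 1 of P1.5 weighs on them. In Wfdc2+/+ Ccl3 and Ccl4 turn above 0 with voom, and Ccl3 also after median centring.

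Counted as reads, Ccl6 held the largest share of the ligand pool in all 8 libraries. The 7 ligands summed to between 15.5 and 44.2 RPM in the 4 E18.5 libraries, to 327 and 286 in P1.5 Wfdc2+/+ and to 311 and 488 in P1.5 Wfdc2GFP/GFP. Ccl6 made up 59.9% and 67.7% of these reads in E18.5 Wfdc2+/+ and 46.8% and 60.7% in E18.5 Wfdc2GFP/GFP. After birth its share was 84.1% and 90.9% in Wfdc2+/+ and 77.0% and 73.8% in Wfdc2GFP/GFP. The 5 ligands other than Ccl6 and Ccl9 summed to 0.599 and 5.65 RPM in P1.5 Wfdc2+/+ and to 11.1 and 38.2 RPM in P1.5 Wfdc2GFP/GFP, and to at most 5.43 RPM in the E18.5 libraries. The total of the ligands thus overlapped between genotypes at P1.5, and the sum of these 5 did not.

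The pan-leukocyte markers had higher means in P1.5 Wfdc2GFP/GFP lungs as well, though by less. Coro1a, Tyrobp and 6 other pan-leukocyte genes all had a higher mean in Wfdc2GFP/GFP, with a median log2 difference of 0.66, and none was called. Their sum was 295 and 375 RPM in P1.5 Wfdc2+/+ and 516 and 569 RPM in P1.5 Wfdc2GFP/GFP, with Tyrobp, an adaptor of myeloid receptors, the most abundant of the list by mean RPKM (83.0 to 119 RPM at P1.5). None of the 8 was at 0 reads in any library. In whole lung, fewer cells of a type and less RNA per cell cannot be told apart, nor can more cells and more RNA per cell.

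Markers of other cells moved with genotype at P1.5 too, none of them called, and their part in the chemokine values was not tested. The 3 erythroid genes, with the haemoglobin gene Hba-a1 the most abundant, summed to 1470 and 1159 RPM in Wfdc2+/+ and to 2254 and 2768 RPM in Wfdc2GFP/GFP, without overlap. Hba-a1 was at a log2 fold change of 1.45 and its near-identical copy Hba-a2 at -6.31, so reads may have been split between these 2 unevenly. All 3 mesothelial genes had a lower mean in Wfdc2GFP/GFP (median -0.78), with overlapping sums of 2038 and 1054 against 1225 and 1114 RPM, as had both fibroblast genes (-0.70), at 272 and 1522 against 376 and 555 RPM. The 2 liver genes, Apoa1 and Alb, were lower as well, at 6.77 and 63.9 against 1.17 and 1.33 RPM. The 2 heart genes, Myh6 and Nppa, had higher means, with overlapping sums of 56.0 and 31.8 against 50.9 and 74.7 RPM.

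Of the monocyte markers, Ly6c2 and Plac8, both typical of classical monocytes, were higher in P1.5 Wfdc2GFP/GFP. Ly6c2 had 71 and 134 reads in P1.5 Wfdc2+/+ and 351 and 410 in Wfdc2GFP/GFP (log2 fold change 1.62 ± 0.55, SE, limma adjusted p = 0.36), and Plac8 had 652 and 954 against 2715 and 3883 (1.70 ± 0.53, adjusted p = 0.34). F13a1, Chi3l3 and Vcan had a lower mean. The summed monocyte level overlapped between genotypes, at 143 and 202 RPM in Wfdc2+/+ and 189 and 217 RPM in Wfdc2GFP/GFP. Of the macrophage markers, with Lyz2 the highest by mean RPKM, 9 of 11 were higher (median 0.47) and none was called. They summed to 820 and 1307 RPM in Wfdc2+/+ and to 1450 and 1493 RPM in Wfdc2GFP/GFP.

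Neutrophil markers did not separate the genotypes at P1.5. Of 10 genes, with S100a8 the highest by mean RPKM, 4 were higher and 6 lower, and the sums were 1901 and 681 RPM in Wfdc2+/+ and 1468 and 938 RPM in Wfdc2GFP/GFP. All 10 were higher at P1.5 than at E18.5 in both genotypes, by medians of 3.28 and 3.46 on the log2 scale. The 5 non-classical monocyte markers, with Ace the highest, summed to between 189 and 437 RPM over all libraries, and the T and NK cell markers, with Gzma the highest, to between 1.81 and 13.7 RPM. In each of the T and NK, B and mast cell lists, 1 tested gene was higher and 2 were lower in P1.5 Wfdc2GFP/GFP.

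Set against the summed markers of the same library, the inducible ligands had higher mean values in P1.5 Wfdc2GFP/GFP, by an amount that depended on 1 library. Relative to the pan-leukocyte sum the log2 difference was 3.50 for Ccl2, 3.35 for Ccl12, 2.82 for Ccl4, 2.40 for Ccl7 and 1.76 for Ccl3, and the groups were separate for Ccl2, Ccl4 and Ccl3. Without the P1.5 Wfdc2+/+ replicate 1, with its 1 to 4 reads of these genes, the differences were 2.51 for Ccl2, 1.62 for Ccl4, 1.12 for Ccl7, 0.69 for Ccl3 and 0.68 for Ccl12. Ccl9 was at 0.49, Ccr2 at 0.84, Ccr1 at -0.35 and Ccl6 at -0.57, the last with separate groups in which Wfdc2GFP/GFP was the lower. Without that library Ccl9 was at 1.33 and Ccr2 at -0.66. Relative to the monocyte or the macrophage sum, Ccl2, Ccl3, Ccl4, Ccl7 and Ccl12 had separate groups, and without that library the differences relative to the monocyte sum were 3.04, 1.22, 2.15, 1.65 and 1.21 in that order. These comparisons were chosen after seeing the data.

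**Figure D4:**
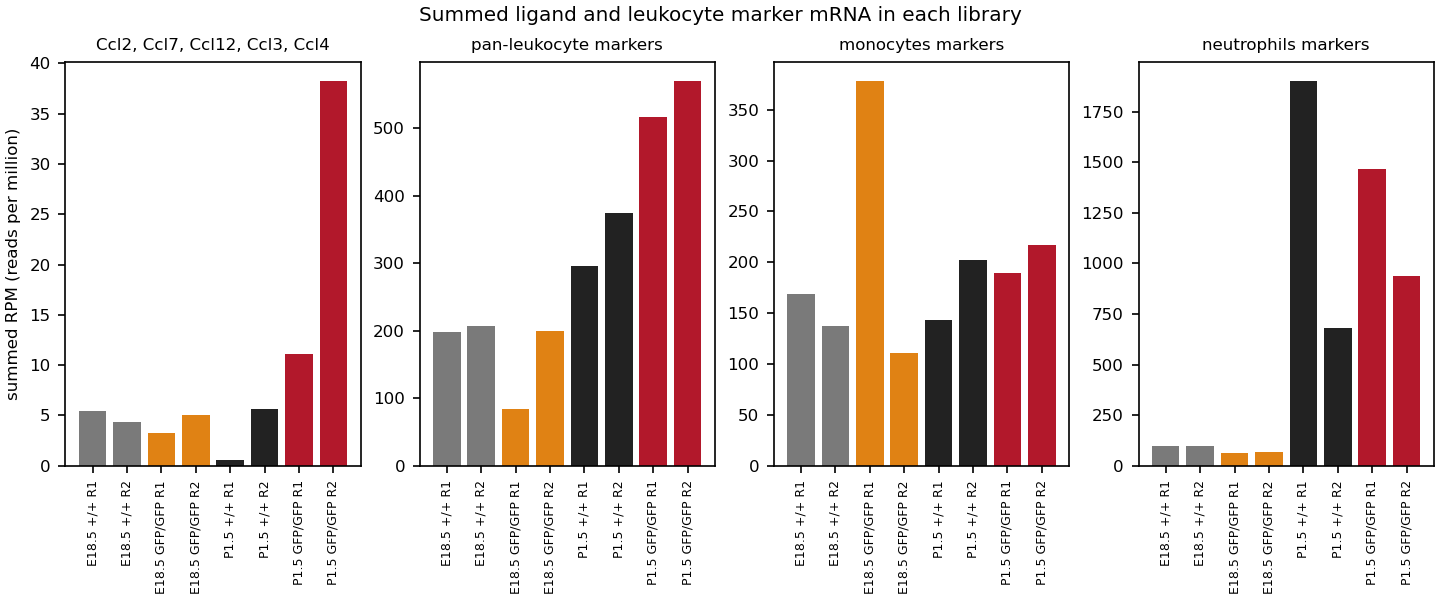
Summed RPM (y axis, from 0) in each of the 8 libraries (x axis; R1 and R2 are the replicates) for Ccl2, Ccl7, Ccl12, Ccl3 and Ccl4 and for the pan-leukocyte, monocyte and neutrophil markers, with bars coloured by group. The 5 ligands reach 11.1 and 38.2 RPM in P1.5 Wfdc2GFP/GFP and at most 5.65 RPM elsewhere, the pan-leukocyte sum is highest in the same 2 libraries, and the monocyte and neutrophil sums overlap between genotypes at P1.5.

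Of 9 further CC chemokine genes with reads that were tested, 7 had a higher mean in P1.5 Wfdc2GFP/GFP and 2 a lower one (median log2 difference 1.71), and at E18.5 3 were higher and 6 lower (-0.18). None was called in either comparison. Ccl17, a ligand of CCR4 made by dendritic cells, had 25 and 5 reads in P1.5 Wfdc2+/+ and 117 and 235 in Wfdc2GFP/GFP (log2 fold change 3.55 ± 0.84, SE, adjusted p = 0.27), and Ccl22, which shares the receptor, had 4 and 14 against 25 and 123 (2.55 ± 0.84, adjusted p = 0.35). Both were among the 4.55% of all genes called from E18.5 to P1.5 in Wfdc2GFP/GFP (limma adjusted p = 0.019 and 0.021). For genes in general the calls of this stage comparison depended on single libraries. That comparison uses the same P1.5 libraries, and nothing is read from these calls. In E18.5 Wfdc2GFP/GFP, Ccl17 had 0 and 1 reads and Ccl22 had none in either library.

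Ccl11, an attractant of eosinophils that lies between Ccl7 and Ccl12, had 37 and 275 reads in P1.5 Wfdc2+/+ and 253 and 691 in Wfdc2GFP/GFP, and these groups overlapped. At E18.5 it had 278 and 165 reads in Wfdc2+/+ against 1316 and 251 in Wfdc2GFP/GFP, with the excess in the replicate 1 that stood apart. Ccl8 had 18 reads in replicate 2 of P1.5 Wfdc2GFP/GFP and at most 1 in every other library. Ccl5 had 15 and 28 reads in P1.5 Wfdc2+/+ and 32 and 42 in Wfdc2GFP/GFP (log2 fold change 0.50 ± 1.03, SE).

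Ccr3, the eosinophil receptor gene between Ccr1 and Ccr2, had at most 10 reads in any library and was not tested. Of the 5 further CC and atypical receptors tested, 2 were higher and 3 lower at P1.5 (median -0.70), with Ccrl2, a relative of the chemokine receptors, the most abundant of the list by mean RPKM at 329 and 335 reads in P1.5 Wfdc2+/+ against 159 and 380 in Wfdc2GFP/GFP. Of 19 genes of receptor signalling, 9 were higher and 10 lower (median -0.03). None of these 24 genes was called in a genotype comparison.

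Of 12 tested genes of inflammatory cytokines and the NF-kB pathway, which include the feedback inhibitors Nfkbia and Tnfaip3, 10 had a higher mean in P1.5 Wfdc2GFP/GFP (median log2 difference 0.55) and 10 a lower mean in E18.5 Wfdc2GFP/GFP (-0.22), none of them called. The cytokine Il6 had 6 and 6 reads in P1.5 Wfdc2+/+ and 19 and 161 in Wfdc2GFP/GFP (log2 fold change 2.86 ± 0.87, SE, adjusted p = 0.34). Il1b had 31 and 70 against 147 and 701 (2.44 ± 1.22, adjusted p = 0.52), and Tnf had 3 and 16 against 13 and 142 (2.29 ± 1.29, adjusted p = 0.57). For Il6 and Il1b the genotypes were separate, and for Tnf they overlapped. Replicate 2 of Wfdc2GFP/GFP carried by far the most reads of all 3, as it did for Ccl2 and Ccl7.

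The genes whose pattern over the 8 libraries was most like the mean scaled level of the family were Grwd1 (r = 0.986), 2900064A13Rik (0.975), Rgs16 (0.973), Nudt19 (0.969) and 2610001J05Rik (0.966), among the 9414 genes that averaged 0.5 RPKM or more. These values describe only 8 libraries, which fall into 4 groups and differ in depth. Rgs16, a regulator of signalling by G-protein-coupled receptors such as the chemokine receptors, stood at -2.47 and 0.43 log2 RPKM in P1.5 Wfdc2+/+ and at 0.69 and 2.09 in Wfdc2GFP/GFP. As in the family, replicate 1 of P1.5 Wfdc2+/+ was its lowest library and replicate 2 of P1.5 Wfdc2GFP/GFP its highest.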

How the data were processed

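The authors cut reads to 36 nucleotides, trimmed them with Trim Galore 0.4.0, mapped them to mm10 with TopHat 2.1.1 guided by mRNA coordinates, and counted and normalized them in SeqMonk. CASAVA 1.8 is named in the submitters' processing notes. The deposited values are log2 RPKM, with lengths taken over exons and introns and 0 reads entered as 0.9 read. Whole reads were recovered from them (99.86% to 99.97% of values within 0.02 of a whole number). Library totals ran from 19457647 to 37209333 reads, and 3 reads, taken as the limit of detection, equal 0.0806 to 0.154 RPM.

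The log2 RPKM were fitted as deposited, without a pseudocount, with limma 3.58.1 (R 4.3.3) for the 15627 genes averaging 0.05 RPKM or more, with 1 mean per group, a trend in the prior spread and two-sided p-values adjusted by the Benjamini-Hochberg method over all of these genes (threshold 0.05). The steps were tested on simulated data. Fold changes on the log2 scale come from means of log2 values. RPM are reads scaled to the total of the library. Groups were taken from the genotype and stage in the labels. The family members, the gene lists and the alternatives were chosen with earlier results of these data known. The genes named are the members, from each list the most abundant gene and genes past the threshold, the neighbouring and co-acting genes Ccl5, Ccl8, Ccl11 and Ccr3, and the 5 genes most like the family. Ly6c2, Il6, Tnf and other genes outside this rule were picked after their values were seen, and some results under this rule are not reported here. Older symbols in the table were matched through RefSeq, and positions were compared with GENCODE M21. Tables and figures were made with Python 3.11.15, pandas 2.3.3, numpy 2.4.6 and matplotlib 3.10.9.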

Additional observations from a re-analysis of the deposited data

Results flagged for a closer look

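For Ccl9 and Ccl12 both Wfdc2GFP/GFP libraries lay below both Wfdc2+/+ libraries at E18.5 and above both at P1.5. The log2 fold change of Ccl9 was -0.50 at E18.5 and 1.19 at P1.5, and that of Ccl12 was -1.06 and 4.05. Without replicate 1 of E18.5 Wfdc2GFP/GFP the E18.5 values were -0.096 for Ccl9 and -0.40 for Ccl12. Over all genes tested, 1.56% were lower without overlap at E18.5 and higher without overlap at P1.5. For Ccl12 the stages were also separate in opposite directions, with a log2 change from E18.5 to P1.5 of -3.11 in Wfdc2+/+ and 2.01 in Wfdc2GFP/GFP, as 5.65% of all genes did in either direction. The E18.5 differences of both genes did not pass limma's test (adjusted p = 0.9998 for each). The differences that use the P1.5 libraries were not tested, since the genes were chosen with the P1.5 comparison known. Ccl12 rests on 1 read in replicate 1 of P1.5 Wfdc2+/+, without which the change in Wfdc2+/+ was -0.27 and the P1.5 genotype difference 1.21.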

How the results depend on the processing

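With 2 libraries a group, the precision is set by the spread between libraries, above all by replicate 1 of P1.5 Wfdc2+/+ and of E18.5 Wfdc2GFP/GFP, and for genes near 3 reads by depth. The median difference of the 9 members at P1.5 was above 0 in all 14 alternatives (1.76 to 2.66). It was also above 0 with each library left out (1.22 without P1.5 Wfdc2+/+ replicate 1, 3.70 without replicate 2). The members were selected on this difference in the same libraries, so nothing is read from its sign. Among the alternatives, only the replicate block called a member at P1.5. At E18.5 the median stayed below 0 in 13 of 14 alternatives, from -1.23 to 0.30 relative to the macrophage markers, and was -0.89 to -0.10 with a library left out. Ccl3 and Ccl4 turned sign at E18.5. Ccl3 was at -0.15 after median centring, -0.12 after quantile normalization, -0.14 with voom and -0.36 and -0.81 without replicate 2 of Wfdc2+/+ or of Wfdc2GFP/GFP, and Ccl4 was at 0.082 without replicate 1 of Wfdc2GFP/GFP. With a library left out, Ccl3 ran from -0.81 to 0.94 and Ccl4 from -2.74 to 0.082. The median change from E18.5 to P1.5 was -1.16 to -0.17 in Wfdc2+/+ (-1.69 to 0.64 with a library left out) and 0.075 to 2.82 in Wfdc2GFP/GFP (1.56 to 3.19), where it was 0.075 and 0.11 relative to the pan-leukocyte and macrophage markers and 2.16 relative to the monocyte markers. The median difference between the genotype effects was 1.94 to 2.94 (1.31 to 4.04). The causes were not tested.

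Counts of all genes called changed more. For genotype at E18.5, 3 genes were called, against 6 with a pseudocount of 0.1 RPKM, 22 without a filter, 1 at a mean of at least 0.5 RPKM, 0 after median centring, quantile normalization or voom, 1 from the 4 libraries alone, 8 with a prior without a trend and 0 to 1 with a library left out. For genotype at P1.5, 2 were called, against 11, 21, 0, 0, 0 and 0 with the pseudocount, no filter, median centring, quantile normalization, voom and the 4 libraries alone, 5 with a prior without a trend and 0 to 24 with a library left out. From E18.5 to P1.5 in Wfdc2+/+, 9 were called, against 16, 35, 52, 5, 49, 0 and 0 with the pseudocount, no filter, the higher minimum, median centring, quantile normalization, the 4 libraries alone and voom, 4 with a robust prior and 0 to 2166 with a library left out. In Wfdc2GFP/GFP 711 were called, against 349 without a filter, 1279 after median centring, 3036 from the 4 libraries alone, 1689 with voom and 0 to 4874 with a library left out. For the difference between stages 0 were called in every alternative and 0 to 2 with a library left out. Median centring moved the share of higher calls in Wfdc2GFP/GFP from 252 of 711 to 849 of 1279.

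Same-numbered libraries of a stage deviated together (r = 0.23 at E18.5 and 0.21 at P1.5), but the labels give them only a number in common, with sex following it, and whether they shared a litter is not given. With the replicate number as a block, 1, 9, 123, 1959 and 0 genes were called in these 5 comparisons in that order, and among the members Ccl2 at P1.5, Ccl6 from E18.5 to P1.5 in Wfdc2+/+, and Ccl2 and Ccl4 beside Ccl6 and Ccl9 in Wfdc2GFP/GFP. A second count model on the recovered reads was not run.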
